A study of Mus musculus with 6 samples.

Results

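The genes described here are the integrin chains and the core proteins of focal adhesions, the sites at which a cell grips the matrix around it. They were chosen by name from a list of 45 genes; LIM-domain proteins of the same structures were not in the list. A probe set annotated to the gene's symbol alone was found for 43 of the 45, out of 18193 genes measured, and Itga11 and Ptk2 were not analysed here. The 43 comprised 17 integrin chains, 15 plaque proteins and 11 signalling proteins.

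RNA came from 6 lines of mouse embryonic fibroblasts, 1 array per line, read on 1-colour Affymetrix arrays. Clones E, H and J derived from mice lacking FHL2 (FHL2-/-) and clones E, F and I from wild type (WT) mice, and all 6 had become immortal in culture spontaneously, with no further treatment named in the labels. Each line is a clone, and the letters do not pair a knockout with a wild type clone. The sources used here do not say whether clones of 1 genotype descend from different embryos, so p-values measure only the spread between these clones.

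Integrins are receptors built from an alpha and a beta chain. Outside the cell they hold fibronectin, collagen, laminin or vitronectin; inside, their short tails bind talin and kindlin, which switch them on and recruit vinculin, alpha-actinin, filamin and tensin to tie them to actin. Kinases and adaptors such as Src, Fyn and p130Cas (Bcar1) gather on the same plaque and pass the signal to Rac and to the cytoskeleton. FHL2 is an adaptor of LIM zinc-finger domains that binds integrin tails and several transcription factors, and in fibroblasts it is found at focal adhesions and in the nucleus. The comparison asks which of these genes differ in transcript level between fibroblasts with and without FHL2.

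Levels are deposited log2 intensities. Differences are knockout minus wild type on that scale, with the standard error (SE) of a limma fit over all genes, n = 3 clones per genotype, and p-values adjusted over all 18193 genes by Benjamini-Hochberg; a gene is said to rise or fall where that value lay under 0.05. Readings by clone are given in the order E, H, J for the knockout and E, F, I for the wild type. A level is set only against the same gene's level in other clones, since probe sets differ in sensitivity. Precision is limited by the number of arrays; over all genes the median SE was 0.141. Among the knockout clones H stood apart: its profile correlated at 0.964 and 0.968 with clones E and J across genes, against 0.991 between E and J and 0.988 to 0.991 among wild type clones. Results that rest on it are given with and without it. Array medians were 4.51 to 4.54 in the knockout group and 4.44 to 4.46 in the wild type group.

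The targeted gene was lower in every knockout clone. Fhl2 read 6.01, 6.44 and 6.57 in the knockout clones and 9.88, 8.57 and 9.64 in the wild type clones, a fall of 8.13-fold (limma adjusted p = 0.00400). By an exact permutation test (two-sided) p was 0.10, which is the lowest p that 20 assignments can reach. The sources used here do not say whether the probe set reads the deleted exons, and a probe set outside them would not check the labels. Among 10 fibroblast markers Pdgfra rose and Thy1 and Pdgfrb fell, and the mean of the list lay between 11.3 and 11.7 in every clone.

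Adhesion genes passed the test in both directions. Of the 43 measured, 6 rose (Itga9, Itgb3, Tns3, Dock1, Cav1 and Crk) and 5 fell (Bcar1, Fyn, Cav2, Tln1 and Itga3), which is 25.6%, against 19.0% of all 18193 genes (9.04% higher and 10.0% lower). The other 32 did not pass. Leaving out 1 clone at a time gave between 5 calls (without knockout clone J) and 22 (without knockout clone H). The estimated difference lay below 0 for 31 (72.1%) and above it for 12, where 43.6% of all genes lay below 0, with a median of -0.29 against 0.04 over all genes. Knockout and wild type clones did not overlap for 16 of the 43, 7 with the knockout higher and 9 with it lower, where 38.9% of all genes had no overlap. Of the classes, signalling proteins held the largest share of calls, 6 of 11 (3 up and 3 down), while 3 of 17 integrin chains and 2 of 15 plaque proteins passed. The chains had a median difference of -0.18 and the 26 plaque and signalling proteins -0.29. Taken apart, the plaque proteins had -0.31 and the signalling proteins -0.08. These medians describe the lists and do not test them against each other. The chain median moved with the setting, to -0.08 when knockout clone E was left out and -0.28 when H was. It was -0.05 with probe sets averaged and -0.52 with only genes at or above the median level, so no order of the lists is read from it.

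**Figure D1:**
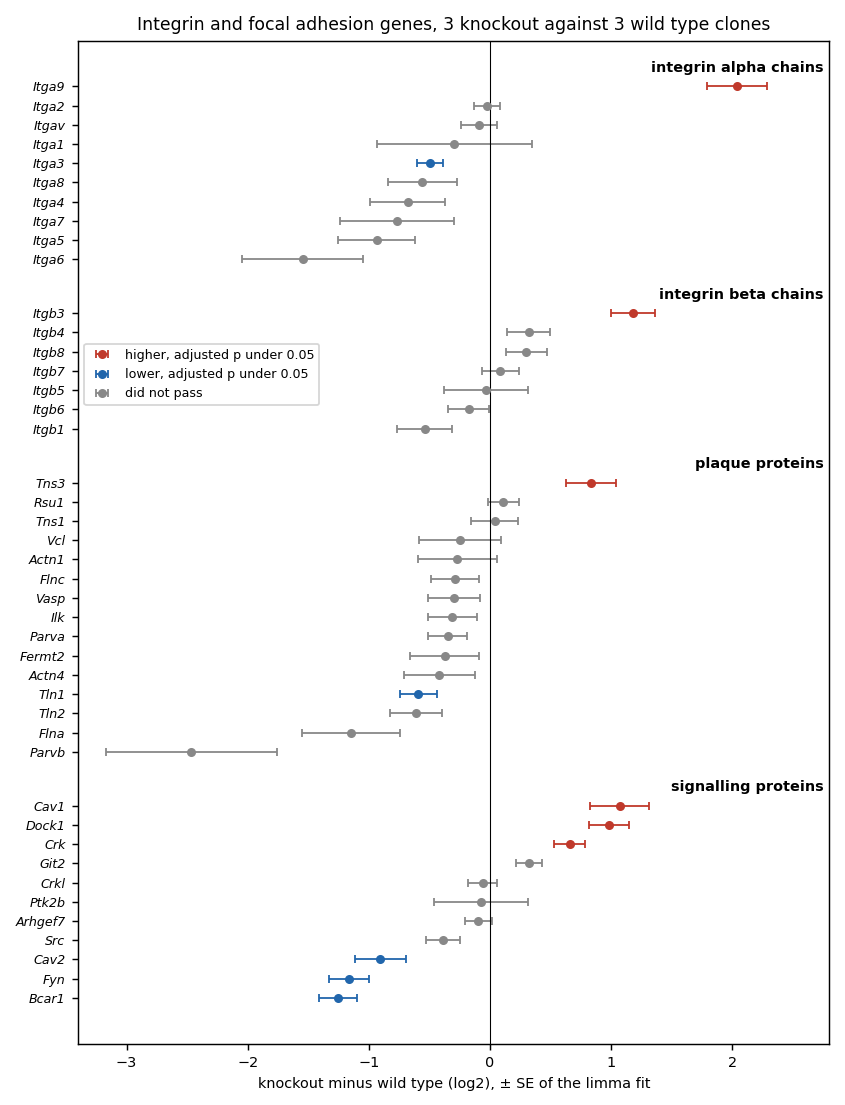
Knockout minus wild type difference on the log2 scale for each of the 43 measured genes by class, points with bars of 1 SE of the limma fit (3 clones per genotype). The 6 genes that rose are red, the 5 that fell blue and the 32 that did not pass grey; 31 of the points lie left of 0.

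Among the integrin chains, the alpha9 and beta3 chains were higher in all knockout clones and the alpha3 chain was lower. Itga9 encodes the alpha9 chain, which pairs with beta1 and binds tenascin-C, osteopontin and VCAM-1. It read 6.02, 6.44 and 6.89 in the knockout clones and 4.42, 4.13 and 4.69 in the wild type clones. Every knockout clone lay above every wild type clone, and the wild type readings were in the lower part of the scale, under the median gene level of 5.92. The means were 6.45 ± 0.431 and 4.41 ± 0.280 (SD, n = 3), a rise of 2.04 (SE 0.249, limma adjusted p = 0.00447), or 4.11-fold. It was the largest rise among the 43 genes; 2 other probe sets of the gene also read higher, by 1.42 and 0.48.

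Itgb3 encodes the beta3 chain, which in fibroblasts pairs with alphav to bind vitronectin and fibronectin. It read 6.79, 6.59 and 7.04 in the knockout clones and 5.31, 5.78 and 5.80 in the wild type clones. All knockout readings lay above all wild type readings, with means of 6.81 ± 0.225 and 5.63 ± 0.278 (SD, n = 3). The rise was 1.18 (SE 0.183, limma adjusted p = 0.00885), or 2.27-fold, and 1.08 by the other probe set.

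The alphav chain itself (Itgav), the partner of beta3, beta5, beta6 and beta8, did not pass. Its readings were 10.56, 10.18 and 10.70 in the knockout clones and 10.57, 10.58 and 10.57 in the wild type clones. The groups overlapped and the difference was -0.09 (95% interval -0.45 to 0.27, limma adjusted p = 0.723). Of its other beta partners, Itgb5 had a difference of -0.04 (95% interval -0.87 to 0.79), and Itgb6 and Itgb8, under the median gene level in both genotypes, had -0.18 and 0.30; none of these passed.

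Itga3 encodes the alpha3 chain of a laminin receptor. It read 6.37, 6.49 and 6.51 in the knockout clones and 6.86, 6.91 and 7.09 in the wild type clones, again without overlap. It fell by 0.49 (SE 0.108, limma adjusted p = 0.0250). The other probe sets of the gene gave larger falls, 1.54 and 0.89. The size therefore depends on the probe set, while all 3 had the same direction.

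The other laminin chains had larger differences but did not pass. Itga6, which pairs with beta1 or beta4, read 5.87, 4.08 and 5.94 in knockout clones and 6.79, 6.63 and 7.11 in wild type clones, a difference of -1.55 (SE 0.500, limma adjusted p = 0.0796). Clone H was the lowest of the 6, and the groups did not overlap. Itga7 differed by -0.77 (limma adjusted p = 0.310) with overlapping groups.

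The classical fibronectin receptor of fibroblasts is built from the alpha5 and beta1 chains, and neither passed. Itga5 read 8.63, 9.48 and 8.26 in the knockout clones and 9.94, 9.47 and 9.78 in the wild type clones. Clones E and J lay below all wild type clones and clone H just above wild type clone F. The difference was -0.94 (95% interval -1.70 to -0.18, limma adjusted p = 0.0897). Itgb1, the beta chain shared by most fibroblast integrins, read 10.76, 11.56 and 10.90 in knockout clones and 11.77, 11.41 and 11.66 in wild type clones. It had the same arrangement, with clone H inside the wild type range and clones E and J below it; its difference was -0.54 (95% interval -1.09 to 0.01, limma adjusted p = 0.154).

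Itga1, the alpha1 chain of a collagen receptor, had the widest spread among knockout clones of all 43 genes. It read 6.09, 8.09 and 5.48 in the knockout clones and 7.19, 6.65 and 6.70 in the wild type clones, so clone H was the highest of the 6 and clones E and J the lowest (difference -0.30, SE 0.640). The gene's other probe set, with a mean under the median gene level, gave 0.69 with overlapping groups. In that probe set clones E and J did not lie below the wild type clones. Itga8, a further RGD-binding chain, read 8.15, 7.58 and 8.67 in the knockout group and 8.94, 8.65 and 8.49 in the wild type group; clone H was the lowest here, and the difference of -0.56 did not pass (limma adjusted p = 0.225). Itga4 differed by -0.68 with overlapping groups (limma adjusted p = 0.184). Taken by chain, 9 of the 10 alpha chains had a difference below 0 (median -0.53) and 3 of the 7 beta chains did (median 0.08). A total of 6 chains (Itga2, Itga4, Itgb4, Itgb6, Itgb7 and Itgb8) had both group means under the median gene level, and their adjusted p in the limma fit lay between 0.184 and 0.884. Itgb2, the beta chain of leukocyte integrins and no member of the list, was also read there and fell by 0.96 (limma adjusted p = 0.0281). The leukocyte list it belongs to had 1 of 9 genes passing and means of 3.91 to 4.20 in all clones.

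The plaque proteins that link integrin tails to actin were mostly estimated lower in the knockout clones, but few passed. Tln1 encodes talin 1, which binds the beta tail and activates the integrin. Its readings were 10.02, 10.46 and 10.01 in the knockout clones and 10.80, 10.81 and 10.65 in the wild type clones, with clone H the closest to the wild type. It fell by 0.59 (SE 0.149, limma adjusted p = 0.0389). Its close relative Tln2 differed by -0.61 (limma adjusted p = 0.0973) and kindlin 2 (Fermt2), the other tail-binding activator, by -0.37 (limma adjusted p = 0.414). The 2 further probe sets of Tln1, both with means under the median gene level, read -1.14 and 0.11. With probe sets averaged Tln1 no longer passed (-0.54, limma adjusted p = 0.169). The 2 further probe sets of Tln2, also under that level, read -0.18 and 0.24.

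Tns3 encodes tensin 3, which binds beta tails and actin at the centre of the cell. It read 11.24, 10.51 and 11.23 in the knockout clones and 10.20, 10.16 and 10.13 in the wild type clones. All knockout clones lay higher, clone H by the least. The rise was 0.83 (SE 0.209, limma adjusted p = 0.0384), or 1.78-fold, and with probe sets averaged it was 0.49 and did not pass (limma adjusted p = 0.0621). Tensin 1 (Tns1) differed by 0.04 with overlapping groups, and by -0.04 with arrays centred on their medians.

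Vinculin, alpha-actinin and filamin tie talin and the integrin tail to actin filaments. Vcl read 9.99, 11.20 and 10.12 in the knockout clones and 10.82, 10.37 and 10.87 in the wild type clones. Clone H was the highest of all 6 and clones E and J the lowest, and the group means differed by only a fraction of that spread (-0.25, 95% interval -1.07 to 0.57, limma adjusted p = 0.663). Flna, filamin A, read 9.61, 11.06 and 9.65 in knockout clones and 11.51, 11.04 and 11.21 in wild type clones. Clones E and J again lay apart from clone H, and the difference of -1.15 (SE 0.401) did not pass (limma adjusted p = 0.0987). Actn4, an alpha-actinin that crosslinks actin, read 10.40, 11.48 and 10.50 in the knockout group and 11.40, 11.07 and 11.17 in the wild type group, with clone H the highest of the 6 (difference -0.42, limma adjusted p = 0.377). Its relative Actn1 differed by -0.27, the actin-polymerising Vasp by -0.30 and filamin C (Flnc) by -0.29; none passed.

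Integrin-linked kinase, the parvins and Rsu1 form a complex that docks on beta tails. In the limma fit 0 of these 4 passed, and 1 (Parvb) had an unadjusted p under 0.05. Ilk read 9.96, 10.29 and 9.79 in the knockout clones and 10.68, 10.07 and 10.23 in the wild type clones, overlapping, with a difference of -0.31 (95% interval -0.80 to 0.18, limma adjusted p = 0.347). Parva, the widely expressed parvin, differed by -0.35 and Rsu1, a partner of the complex, by 0.11. Parvb had the largest difference of all 43 genes in either direction, -2.47 (SE 0.704), and did not pass (limma adjusted p = 0.0561). It read 3.40, 3.48 and 3.69 in knockout clones and 6.07, 4.42 and 7.48 in wild type clones. The groups did not overlap, but the wild type clones spanned more than the distance between the groups' nearest readings, and the gene's other probe set gave -0.16.

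The signalling proteins held 6 of the 11 calls. The kinase Fyn and its substrate p130Cas fell together with caveolin 2, while Crk, Dock1 and caveolin 1 rose. The pathway runs from Src and Fyn, which phosphorylate Bcar1, through the adaptor Crk, which binds phosphorylated Bcar1, to Dock1, the exchange factor that activates Rac.

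Fyn read 8.66, 8.31 and 8.17 in the knockout clones and 9.76, 9.44 and 9.43 in the wild type clones. The groups were well apart, with means of 8.38 ± 0.251 and 9.54 ± 0.186 (SD, n = 3). It fell by 1.17 (SE 0.165, limma adjusted p = 0.00688), or 2.24-fold, and by 1.40 in its other probe set. Src itself read 8.11, 8.33 and 8.15 in the knockout group and 8.62, 8.36 and 8.77 in the wild type group, without overlap, but its difference of -0.39 did not pass (limma adjusted p = 0.102). The other probe set of Src, of similar level, gave -0.01 with overlapping groups. Ptk2b, the kinase Pyk2, differed by -0.08 with overlapping groups.

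Bcar1 had the largest fall among genes that passed. It read 8.002, 8.34 and 7.93 in the knockout clones and 9.56, 9.27 and 9.21 in the wild type clones. Each knockout clone lay below each wild type clone, and the means were 8.09 ± 0.218 and 9.35 ± 0.189 (SD, n = 3). The fall was 2.39-fold (a difference of -1.25, SE 0.156, limma adjusted p = 0.00476), and the other probe set gave -1.11.

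Crk, the adaptor downstream of Bcar1, read 10.08, 10.21 and 10.35 in the knockout clones and 9.66, 9.36 and 9.65 in the wild type clones. The groups did not overlap, and the rise was 0.66 (SE 0.130, limma adjusted p = 0.0185), or 1.58-fold. Its 4 other probe sets all read higher in the knockout clones, by 0.14 to 0.81. The related adaptor Crkl differed by -0.06 (95% interval -0.35 to 0.23).

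Dock1 read 9.21, 9.11 and 8.69 in the knockout clones and 7.86, 8.09 and 8.12 in the wild type clones. All knockout readings were the higher ones, and the rise was 0.98 (SE 0.164, limma adjusted p = 0.0112), or 1.97-fold; the other probe set gave 1.39. Git2 and Arhgef7 (beta-PIX) bring a second Rac exchange activity to the plaque through paxillin. They differed by 0.32 (limma adjusted p = 0.0956) and -0.10 (limma adjusted p = 0.611), and neither passed. The only other probe set of Git2 at or above the median gene level gave -0.06.

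**Figure D2:**
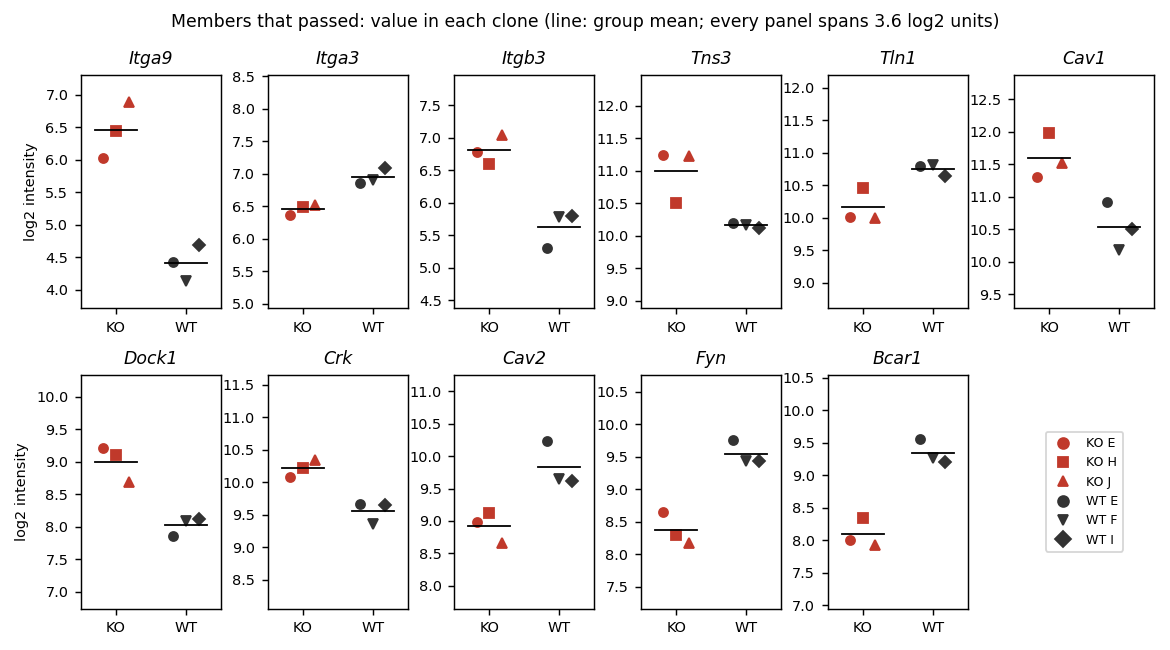
Log2 intensity of each of the 11 genes that passed, in the 3 knockout clones (KO, red) and the 3 wild type clones (WT, black); the line is the group mean and the vertical scale has the same length in every panel. In none of the 11 do the groups overlap; Itga9 has the widest gap and Itga3 the smallest difference of means.

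The caveolins moved in opposite directions. Caveolin 1 is the coat protein that shapes caveolae and is phosphorylated by Src-family kinases; caveolin 2 joins it in the same coat. Cav1 read 11.31, 11.98 and 11.52 in the knockout clones and 10.91, 10.18 and 10.51 in the wild type clones. It rose by 1.07 (SE 0.244, limma adjusted p = 0.0289), or 2.10-fold. Cav2 read 8.99, 9.13 and 8.66 in knockout clones and 10.24, 9.64 and 9.62 in wild type clones. It fell by 0.91 (SE 0.211, limma adjusted p = 0.0305), or 1.88-fold, and the groups overlapped for neither gene. The only other probe set of Cav2 lay under the median gene level and read -0.18; Cav1 had no other.

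These genes lie next to each other on chromosome 6, with 0 genes between them in the RefSeq table, and are shown because neighbours had opposite calls. Their RefSeq promoters (build GRCm38.p6, the 250 bases before the start, plus strand, 5′ to 3′) were searched on both strands for AP-1 sites (TGANTCA), the CArG box of serum response factor and TEAD sites (GGAATG), motifs chosen after the data had been seen. FHL2 is known to bind AP-1 and serum response factor. In the promoters printed, no match overlapped another. Capitals mark the AP-1 letters, which begin 92 bases before the start of Cav2 at chr6:17280935-17281184. No searched letters occurred in the Cav1 window at chr6:17306085-17306334.
Cav2: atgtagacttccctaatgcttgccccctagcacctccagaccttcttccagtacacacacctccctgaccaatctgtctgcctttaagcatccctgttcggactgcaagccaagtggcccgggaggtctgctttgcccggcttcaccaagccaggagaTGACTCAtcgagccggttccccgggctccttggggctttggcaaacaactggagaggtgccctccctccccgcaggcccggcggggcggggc
Cav1: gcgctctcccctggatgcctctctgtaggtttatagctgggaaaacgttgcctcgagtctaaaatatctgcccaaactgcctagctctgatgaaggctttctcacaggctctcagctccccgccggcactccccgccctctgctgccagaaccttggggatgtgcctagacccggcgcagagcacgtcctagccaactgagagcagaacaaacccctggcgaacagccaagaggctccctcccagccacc
The AP-1 letters, searched with any base at N, were found in 6.75% of all 32851 promoters. They were found in 2 of the 46 promoters available for 37 adhesion genes, Cav2 (TGACTCA) and Actn4 (TGAATCA). A match is a description of the letters only.

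For many adhesion genes the knockout clones did not read alike. In 15 of the 43 genes clones E and J lay below every wild type clone while clone H did not, against 6.20% of all genes. They were 5 integrin chains (Itga1, Itga5, Itga7, Itgb1 and Itgb5), 8 plaque proteins (Vcl, Actn1, Actn4, Flna, Fermt2, Vasp, Ilk and Parva) and 2 signalling proteins (Ptk2b and Crkl). The arrangement was read from the probe set reported for each gene. Among other probe sets at or above the median gene level, those of Itga5, Fermt2, Vcl and Actn1 had it too. Those of Parva and Crkl did not, and those of Itgb1 and Itgb5 were divided. The opposite arrangement, E and J above and H not, was found in 1 gene of the 43, Itgb8, against 1729 of all 18193 genes. Clone H was the highest of the knockout clones in 24 of the 43 and the lowest in 9, where over all 18193 genes it was the highest in 6392 and the lowest in 7610. The mean of the muscle markers was arranged alike, at 4.24, 4.86 and 4.25 in the knockout clones and 4.29 to 4.73 in the wild type group. By gene, only 2 of the 6 muscle markers had the arrangement. Their median of clone H minus the mean of E and J was 0.007. The largest such gap, 3.16, was that of Myh11, smooth muscle myosin, named after its values were seen. Myh11 read 3.90, 6.89 and 3.56 in the knockout group and 5.01, 4.02 and 4.25 in the wild type group. The part of such cells or of this difference between clones was not tested. For the 15 plaque proteins the median reading relative to the wild type mean was -0.60 in clone E, -0.57 in clone J and -0.03 in clone H. For the 8 actin linkers it was -0.59, -0.56 and 0.22. The median SD of the plaque proteins was 0.396 among knockout and 0.204 among wild type clones, where that of all genes was 0.166 and 0.149.

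**Figure D3:**
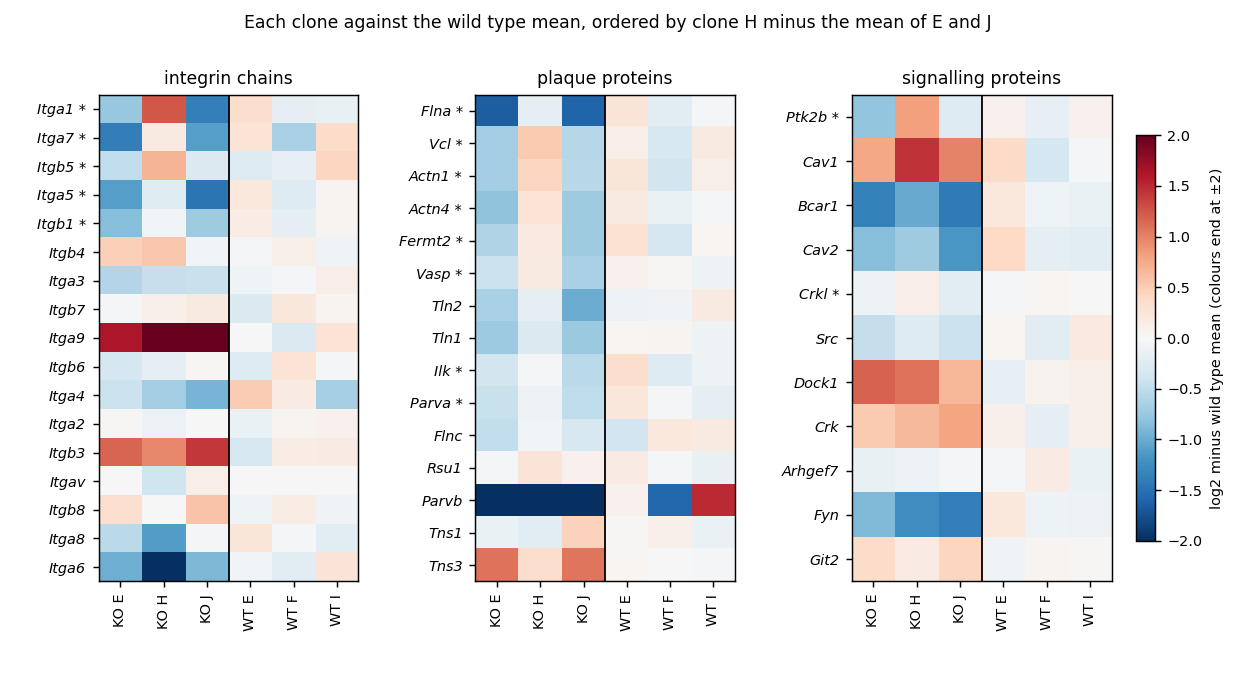
Each clone's log2 reading minus the wild type mean for the 43 genes, as colour (red higher, blue lower, ending at 2 in either direction), ordered within each class by clone H minus the mean of E and J. An asterisk marks the 15 genes in which, by the probe set reported, clones E and J lay below all wild type clones and clone H did not. Of them 8 are plaque proteins.

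The promoters of Vcl (chr14:20929148-20929397, plus strand) and Fermt2 (chr14:45530066-45530315, minus strand) are shown because both genes have this arrangement and hold a CArG box, which is found in 1.47% of all promoters and in 3 of the 46 (the other is of Itgb6). Capitals mark the CArG box, 227 bases before the start in Vcl and 204 in Fermt2, and in Vcl also a TEAD match 143 bases before it. TEAD letters occur in 12.6% of all promoters and in 5 of the 46.
Vcl: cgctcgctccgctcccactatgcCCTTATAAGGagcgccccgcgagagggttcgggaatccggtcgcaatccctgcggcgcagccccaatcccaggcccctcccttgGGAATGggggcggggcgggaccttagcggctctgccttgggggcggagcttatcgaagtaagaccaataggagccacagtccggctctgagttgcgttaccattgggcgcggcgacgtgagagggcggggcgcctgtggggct
Fermt2: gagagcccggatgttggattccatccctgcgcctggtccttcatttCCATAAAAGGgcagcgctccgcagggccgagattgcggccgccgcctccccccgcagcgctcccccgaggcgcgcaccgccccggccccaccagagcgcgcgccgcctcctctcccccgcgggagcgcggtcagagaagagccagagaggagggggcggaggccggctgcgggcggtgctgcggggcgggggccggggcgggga
The other genes of the 15 with a promoter in the table held no CArG box in this window, and nothing about the factor follows from that.

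With clone H left out, 22 of the 43 genes passed (7 higher and 15 lower), against 26.1% of all genes and 13.4% lower. They held all 11 genes that passed with every clone, and the additional 11 were Itga1, Itga5, Itga6, Itga7, Itgb1, Tln2, Vcl, Actn4, Flna, Vasp and Git2. Flna then had a difference of -1.63 (SE 0.161, limma adjusted p = 0.00119), Itga5 of -1.28 (SE 0.186, limma adjusted p = 0.00429), Itgb1 of -0.78 (SE 0.144, limma adjusted p = 0.00986), Actn4 of -0.76 (SE 0.136, limma adjusted p = 0.00892) and Vcl of -0.63 (SE 0.178, limma adjusted p = 0.0433). By class the 22 were 8 chains, 7 plaque proteins and 7 signalling proteins. Clone H lay apart from clones E and J for Itga6 as well, but below them, so that its difference shrank to -0.94 while passing (limma adjusted p = 0.00796). These sizes describe clones E and J alone and rest on a group of 2. Among the additional 11, Itga1, Itga5, Itga7, Itgb1, Vcl, Actn4, Flna and Vasp were already named for the arrangement above. Their calls without clone H reuse the same values and are no separate support for that arrangement.

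The calls differed in how far they rested on single clones. Itga9, Itgb3, Fyn, Bcar1 and Dock1 passed in all 6 fits that left out 1 clone. Crk and Cav1 passed in 3 of the 6, with differences of 0.56 to 0.72 and 0.88 to 1.26; Crk was lost without knockout clone J or wild type clone E or F, and Cav1 without knockout clone J or wild type clone F or I. Itga3, Tln1, Tns3 and Cav2 passed only where clone H was the one left out; in the other 5 fits their adjusted p reached 0.0804, 0.125, 0.121 and 0.0971 at most. The direction was the same in each of these fits for all 11 genes.

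Where a gene had several probe sets, most read in the same direction as the one reported. Of 62 other probe sets over 33 genes, 45 had the same sign, 20 of the 27 at or above the median gene level and 25 of the 35 below it. Among genes that passed, Itga3, Fyn, Bcar1, Crk and Dock1 had at least 1 other probe set above that level, and each of those read in the same direction.

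**Figure D4:**
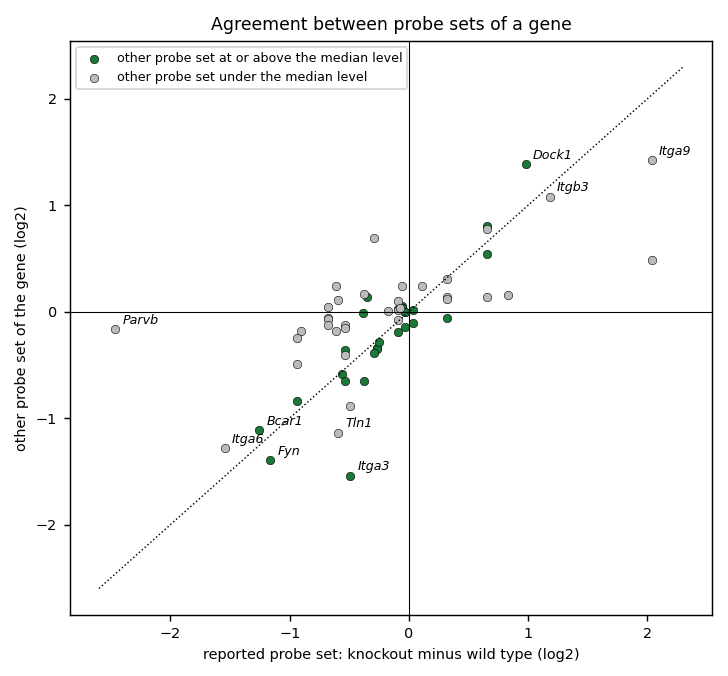
Knockout minus wild type difference (log2) of the 62 other probe sets of the adhesion genes against that of the probe set reported for the same gene; green points lie at or above the median gene level, grey points below it, and the dotted line marks equal values. Of the 62, 45 share the sign of the reported one; Parvb lies far from the line at -2.47 against -0.16.

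Other genes of adhesion were read from lists of related genes. Of 29 measured among 34 further adhesion genes, 11 passed (37.9%, against 19.0% of all genes), 7 of them lower and 4 higher in the probe set reported, with a median of -0.19. Tns2, another tensin, fell by 0.88 (limma adjusted p = 0.00882), and Kank1, which surrounds adhesions and binds talin, rose by 0.90 (limma adjusted p = 0.0221). Pxk fell by 0.71 (limma adjusted p = 0.0143). It is counted among the 11 because it was in the list, though it is not an established focal adhesion protein. Sdc4, the proteoglycan syndecan 4 that assists the fibronectin receptor, gave a rise of 1.59 (limma adjusted p = 0.00839) in the probe set reported and -1.65 in its other one, so it is 1 of the 4 counted as higher but no direction is given for it. Among 6 integrin-associated membrane proteins, the tetraspanins Cd9 and Cd151 and the receptor Cd47 fell (3 of 6, against 19.0% of all genes), by 0.95 (limma adjusted p = 0.00611), 0.80 (limma adjusted p = 0.0407) and 0.80 (limma adjusted p = 0.0340); none rose. With probe sets averaged Cd47 was at -0.31 (limma adjusted p = 0.325) and Cd151 at -0.57 (limma adjusted p = 0.0504), and neither passed.

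Of 21 matrix ligands measured, 2 rose and 2 fell, laminin chains and nidogen; these 4 are 19.0% of the list, the same share as of all genes. Lama4, the laminin alpha4 chain, read 11.11, 10.31 and 11.07 in the knockout clones and 6.70, 7.89 and 7.98 in the wild type clones, a rise of 3.31 (SE 0.391, limma adjusted p = 0.00411). Lama2, the laminin alpha2 chain, read 6.60, 5.93 and 5.65 against 8.27, 9.89 and 7.40 and fell by 2.46 (SE 0.621, limma adjusted p = 0.0389). Lamb2 rose by 0.63 and Nid1, which bridges laminin and collagen IV, fell by 0.64. Fibronectin (Fn1) differed by 0.09 (limma adjusted p = 0.694) and did not pass.

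Markers of other cell types were mostly low, but the means of 3 lists (epithelial, endothelial and leukocyte) did not overlap between genotypes. Epithelial markers averaged 4.57 to 4.66 in the knockout group and 5.08 to 5.28 in the wild type group, with 4 of 6 under the median gene level in both genotypes. Krt19 fell by 3.05 and Epcam rose by 0.43. With probe sets averaged Epcam was at 0.10 (limma adjusted p = 0.489) and did not pass. Among the fits that left out 1 clone, Epcam passed only without knockout clone H. The lower mean came from Krt19 and Krt18 (-1.01, did not pass), while 4 of the 6 genes had differences above 0 and the list median was 0.02. Endothelial markers averaged 4.25 to 4.73 and 3.47 to 3.91, with 5 of 6 under that level. Tek rose by 4.27, and the other 5 genes differed by -0.30 to 0.37. The knockout clones were unlike for Tek, which read 8.36, 4.68 and 8.91 against 3.27, 3.31 and 2.54 in the wild type clones. Leukocyte markers averaged 4.09 to 4.20 and 3.91 to 4.07, with 7 of 9 under that level. Of the 9 genes, 8 had differences above 0, with a list median of 0.12. The largest was that of Lyz2 (1.14, did not pass), while Itgb2, the only one that passed, fell by 0.96. Muscle markers averaged 4.24 to 4.86 and 4.29 to 4.73, all 6 under it, and 0 passed in the limma fit, with 0 at an unadjusted p under 0.05. Platelet markers averaged 5.34 to 5.81 and 5.49 to 5.67, and 0 of 4 passed in the limma fit, with 0 at an unadjusted p under 0.05. The part of such cells in the results above was not tested, and in bulk RNA fewer cells of a type and less RNA per cell cannot be told apart.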

How the data were processed

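RNA of 6 clones was labelled with biotin by a 3′ single-cycle protocol, per the labels' protocols. The authors deposited log2 intensities made with RMA, named in the submitters' processing notes; version and settings: not given in the sources used here. Wild type clone E has values of 9 decimals, the others of 3. Of 45101 probe sets, 64 controls, 932 with several symbols and 9160 without one were left out. For each of the 18193 genes the probe set of highest mean level was taken, and none was filtered for level. Differences come from limma 3.58.1, run in R 4.3.3 (lmFit, then eBayes; genotype alone, 4 residual degrees of freedom), checked on simulated data. Named were Fhl2, every listed gene and at most 4 genes of each further list, those that passed with the smallest unadjusted p. Readings by clone are given for genes that passed and for Itgb1, Itgav, Itga5, Vcl and Ilk. Chosen after seeing the values, they are also given for Itga1, Itga6, Itga8, Flna, Actn4, Parvb, Src, Lama4, Lama2 and Tek. Fn1, Krt18, Lyz2, Myh11 and the genes of the closing observations were also named after seeing the values. The members and lists were chosen with earlier results of these data known. Alternatives were another prior, quantile normalization again, median centring, a level filter, other probe set rules, array weights, a threshold of 1 and each clone left out. Python 3.11.15 and matplotlib 3.10.9 drew the figures.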

Additional observations from a re-analysis of the deposited data

How the results depend on the processing

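The number of adhesion genes that passed was 11 and ran from 5 to 22 over the fits that left out 1 clone (3 to 7 higher and 2 to 15 lower); leaving out knockout clone J gave 5 and leaving out knockout clone H gave 22. Over all genes the same fits gave 1661 to 4750 calls, against 3464 with all clones. Array weights gave 17 adhesion genes, 10 of them lower, where over all genes they gave 4926 calls. In the fit of all clones 5 adhesion genes passed with a difference of at least 1 as well. The matching count over all genes was not taken. Median centring, quantile normalization again, the trended robust prior, the level filter and the other probe set rules kept the count of adhesion genes within 1.5 times. The median of the integrin chains was -0.52 with only genes at or above the median level, which leaves out the chains read low. The median of the signalling proteins ran from -0.16 to 0.00955 when 1 clone was left out. For Sdc4 the direction reversed, to -0.031 with probe sets averaged and -1.65 without probe sets open to cross-hybridization. Itga3 fell by 1.54 without the latter, where another probe set is read. No paired analysis was possible because the clone letters of the genotypes share only E. The clones, 3 per genotype, limit what small differences can be told from 0.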

Other observations

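Beside Dock1, its partners in Rac activation were read among the further adhesion genes; these were singled out after their values were seen. Elmo1 and Elmo2 encode the scaffolds that bind Dock1 and complete its exchange activity. Elmo1 read 5.74, 5.76 and 5.78 in the knockout clones (E, H, J) and 6.11, 6.23 and 6.48 in the wild type clones (E, F, I), a fall of 1.43-fold (limma adjusted p = 0.0314). Elmo2 read 7.71, 7.87 and 7.71 against 8.15, 8.18 and 8.07, a fall of 1.29-fold (limma adjusted p = 0.0470). In the probe sets reported, both scaffolds were thus lower in every knockout clone while Dock1 was higher in every knockout clone. Elmo1 has 3 probe sets and Elmo2 has 2. Unlike for Dock1, other probe sets and settings were not examined for the genes singled out here and below.

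Further genes of the list that passed were singled out in the same way. Csk, the kinase that restrains Src-family kinases, read 8.46, 8.52 and 8.59 in knockout clones and 8.997, 9.06 and 8.87 in wild type clones, a fall of 1.37-fold (limma adjusted p = 0.0262). Ptpn12, the phosphatase that removes phosphate from p130Cas, fell by 0.72 (SE 0.172, limma adjusted p = 0.0328). Cass4, a relative of p130Cas, fell by 0.49 from a level under the median of genes. Evl, an actin-polymerising relative of Vasp, rose by 0.75 (SE 0.159, limma adjusted p = 0.0231). Itgbl1, a secreted protein with integrin beta-like repeats, read 5.24, 8.13 and 6.91 in knockout clones and 3.75, 3.44 and 3.81 in wild type clones, a rise of 3.09 (SE 0.672, limma adjusted p = 0.0247) with the widest spread in the knockout group.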
